A study of Mus musculus with 9 samples.

Results

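The SR and hnRNP splicing factors were examined in D2.0R cells, a mouse mammary tumour line, cultured in 3 dimensions on basement membrane extract (BME), on which these cells stay dormant, or on BME enriched with type I collagen (BME + COL1), on which they proliferate. Members were all genes whose symbol begins with Srsf, Sfrs or Hnrnp followed by the family number or letter, leaving out processed pseudogenes named as such. The rule found 30 of the 23309 gene symbols in the files, 12 SR genes and 18 hnRNP genes. There were 3 libraries in each of 3 groups, BME day 1, BME day 5 and BME + COL1 day 5, all from one untreated line with no transgene or drug named, in low-glucose medium with low serum. Each library was made from cells freed from the matrix, and the replicates (a, b and c) are given as biological ones. Values are FPKM (sequenced fragments scaled to transcript length and to the library's total), summed over the RefSeq transcripts of a gene.

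SR proteins carry RNA recognition motifs and a domain rich in arginine and serine, bind exonic enhancers and help the spliceosome to recognise nearby splice sites. hnRNP proteins coat nascent transcripts, and several of them act against SR proteins at weak exons. Both families bind their own pre-mRNAs: many SR genes hold a conserved exon or intron whose inclusion brings in a premature stop codon, so that the transcript is a substrate of nonsense-mediated decay, and this is known to hold SR protein levels in check.

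Of the 30 members, 29 reached a mean of 1 FPKM over the 9 libraries and were tested among 10497 genes with limma on log2(FPKM + 0.1), a scale that understates differences of low genes. Srsf12, a testis-enriched SR gene, was listed at 0 in 8 libraries and at 0.00694 FPKM in 1 and was not tested. The members together took 0.488% to 0.624% of all FPKM in the BME libraries and 0.817% to 0.852% in the BME + COL1 libraries. Sequenced bases over transcripts, taken as coverage times length, were 7.21 to 9.37 gigabases per library; read counts are not given in the files, so the counting error of each value was not computed. BME day 5 replicate b stood apart: the median of all its genes lay 0.27 below the mean of the 9 libraries on the log2 scale and that of the members 0.80 below, and its Neat1 (a nuclear long noncoding RNA) was at 225 FPKM against 44.6 to 63.6 elsewhere. BME + COL1 replicate c had Rn45s, the ribosomal RNA precursor, at 3105 FPKM against 102 to 201 in the other libraries. Of the mammary epithelial markers, Krt8 and Krt18 were at 362 to 1324 FPKM, Cdh1 at 15.9 to 38.0, Krt14 at 9.26 to 24.4, Krt7 at 1.23 to 10.9 and Epcam at 0.531 to 1.59, while Krt5, Krt19, Cldn3 and Cldn4 stayed under 1 FPKM throughout. Below 0.1 FPKM in all libraries were 7 of 10 blood-cell markers (Ptprc, Itgam and Cd3e among them), 6 of 8 endothelial ones (Pecam1 and Cdh5 among them) and 4 of 9 fibroblast-associated genes (Dcn, Lum, Fap and Col3a1).

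On BME at day 5, 26 of the 29 members were lower than on BME + COL1 at day 5, 2 were higher and 1 did not pass the test (adjusted p under 0.05). Over all genes tested, 45.3% were lower and 30.3% higher in this comparison. The median difference of the members was −1.01 on the log2 scale, and that of all genes was −0.18. In each of the 26 members called lower, all BME libraries lay below all BME + COL1 libraries, a separation seen downwards in 48.1% of all genes tested. The split of calls over all genes moved with the scaling: in TPM, which is FPKM rescaled to one total in all libraries, the median of all genes was 0.16, with 4858 genes higher and 3327 lower, and the members' median was −0.67 with 24 of 29 lower. Without BME day 5 replicate b, 26 members were lower and 3 higher, with a median of −0.86 against −0.10 for all genes. Of all genes, 4675 were then lower and 3609 higher. Because these are bulk RNA values relative to each library's total, fewer cells making an mRNA and less of it per cell cannot be told apart.

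**Figure D1:**
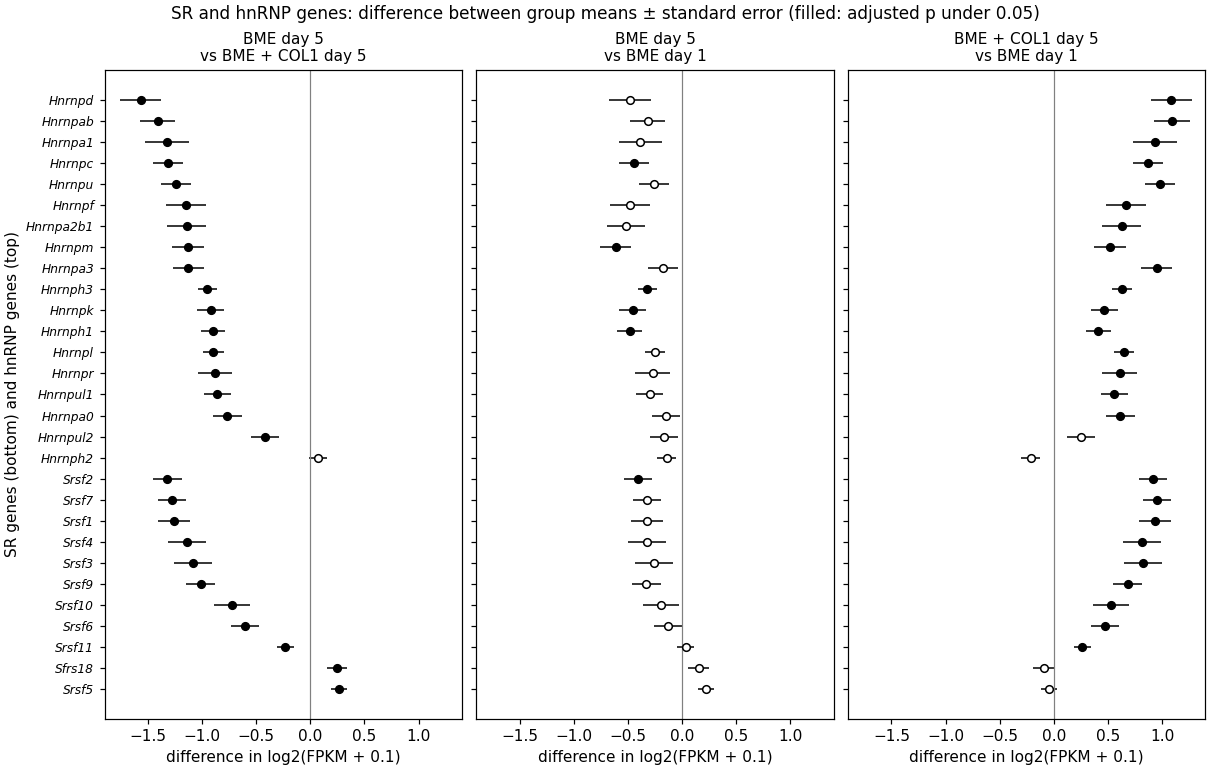
Difference between group means in log2(FPKM + 0.1) for each of the 29 tested SR and hnRNP genes, with its standard error, in the 3 comparisons (filled points, adjusted p under 0.05). In the left panel 26 genes are filled to the left of 0, in the middle panel 6, and in the right panel 25 are filled to the right.

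Among the SR genes, Srsf2 (SC35), which marks nuclear speckles and acts in enhancer-dependent splicing, differed most. It read 82.8, 56.1 and 78.0 FPKM in BME day 5 replicates a, b and c, and 179, 179 and 177 FPKM in the BME + COL1 replicates. The 3 BME values lay below the BME + COL1 values, whose spread was narrow. Srsf2 was 2.498-fold lower on BME (log2 difference −1.32 ± 0.13 SE, adjusted p = 1.63e-05).

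Srsf7 (9G8), a shuttling SR protein that also takes part in mRNA export, read 37.8, 26.7 and 37.7 FPKM on BME at day 5 and 83.2, 80.3 and 81.1 FPKM on BME + COL1. The groups did not overlap, and replicate b was again the lowest. The log2 difference was −1.27 ± 0.13 (SE, adjusted p = 1.85e-05). Srsf1 (ASF/SF2), the founding SR protein and a known oncogene in breast, followed with −1.26 ± 0.15, from 78.4 ± 1.61 FPKM (SD, n = 3) on BME + COL1 to 33.2 ± 7.002 on BME. Srsf4, Srsf3, Srsf9, Srsf10 and Srsf6 were lower by log2 differences between −1.14 and −0.60. Srsf11 was lower by only −0.23 (adjusted p = 0.025), and this changed sign in 2 of 21 settings, to 0.11 in TPM (adjusted p = 0.165) and to 0.18 under quantile normalization, where it was called higher (adjusted p = 0.0193).

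The hnRNP genes held the largest differences. Hnrnpd (AUF1), which binds AU-rich elements and directs mRNA decay, read 13.1, 7.40 and 13.1 FPKM on BME at day 5 and 33.0, 32.8 and 30.8 FPKM on BME + COL1. All 3 BME values were below 14 FPKM and all 3 BME + COL1 values above 30. Hnrnpd was 2.96-fold lower (log2 difference −1.57 ± 0.19 SE, adjusted p = 5.69e-05).

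Hnrnpab, a close relative of Hnrnpd that acts in transcription and mRNA transport, read 135, 85.0 and 136 FPKM on BME and 325, 299.9 and 302 FPKM on BME + COL1. It was 2.66-fold lower on BME (−1.41 ± 0.16, adjusted p = 4.15e-05). Hnrnpc, which binds uridine tracts in introns and keeps cryptic exons out, read 53.2, 36.7 and 53.8 FPKM on BME and 122, 114 and 116 FPKM on BME + COL1. Its log2 difference was −1.31 ± 0.14 (adjusted p = 2.43e-05). In both genes every BME value lay below every BME + COL1 value.

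Hnrnpa1, the best known antagonist of Srsf1 at exonic silencers, read 85.3, 49.1 and 93.4 FPKM on BME and 189, 182 and 179 FPKM on BME + COL1. The groups did not overlap, and the log2 difference was −1.32 ± 0.20 (adjusted p = 0.000236). The files place a processed pseudogene model, Gm10052, at the Hnrnpa1 locus with 68.1 to 303 FPKM, and another, Gm6793, at the Hnrnpa3 locus with 158 to 518 FPKM, more than the genes themselves in every library. A further model, Gm5643, overlaps Hnrnpa1 on the same strand over 700 bases, at 6.50 to 20.2 FPKM. How reads were divided between gene and copy is uncertain. With the pseudogene models added, the differences were −1.44 (adjusted p = 0.000156) for Hnrnpa1 and −1.27 (adjusted p = 4.08e-05) for Hnrnpa3, against −1.13 for Hnrnpa3 alone. The FPKM added to Hnrnpa1 spanned 68.1 to 303, the range of Gm10052, and so left out nearly all of that of Gm5643.

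The most abundant members followed the rest. Hnrnpa2b1, which reads N6-methyladenosine and sorts RNA into vesicles, read 209, 133 and 226 FPKM on BME and 422, 396 and 403 FPKM on BME + COL1 (log2 difference −1.14 ± 0.18, adjusted p = 0.00026). Hnrnpk, a poly(C)-binding protein, read 200.2, 141 and 193 FPKM on BME and 332, 334 and 334 FPKM on BME + COL1 (−0.92 ± 0.13, adjusted p = 0.000121). Hnrnpu, the scaffold attachment factor A that ties nascent RNA to chromatin, was lower by −1.24 ± 0.14, from 219 ± 6.97 to 94.1 ± 18.9 FPKM (SD, n = 3). The remaining hnRNP genes called lower lay between −1.15 (Hnrnpf) and −0.42 (Hnrnpul2). Hnrnph3 overlaps Rufy2 on the opposite strand over 1051 bases of exon, and Rufy2 reached 2.83 FPKM while Hnrnph3 was at 4.27 FPKM or more, so that reads of both cannot be fully told apart if strand was not used in counting.

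**Figure D2:**
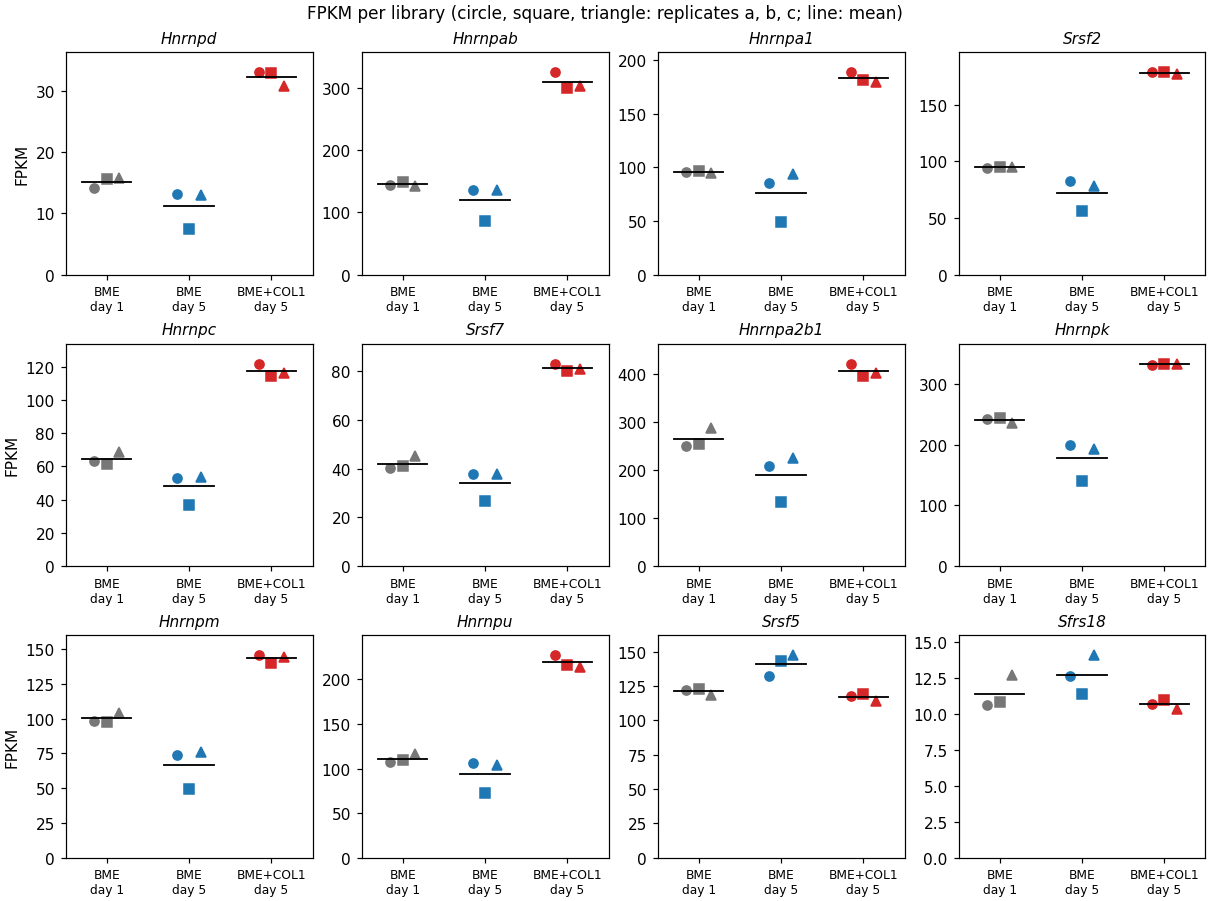
FPKM of 12 members in each of the 9 libraries, with the group mean as a line, on axes that start at 0. In the first 10 genes the 3 BME + COL1 libraries lie above the other 6, and in Srsf5 the 3 BME day 5 libraries are the highest.

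Members moved the other way in only 2 cases. Srsf5 (SRp40), a serum- and insulin-responsive SR protein, read 132, 143 and 147 FPKM on BME at day 5 and 118, 119 and 115 FPKM on BME + COL1. The groups did not overlap, a separation seen upwards in 32.1% of all genes tested. Srsf5 was 1.202-fold higher on BME (log2 difference 0.27 ± 0.07, adjusted p = 0.00863). It stayed higher in all 21 settings tried, between 0.18 and 0.72. Replicate b, the lowest library for 27 of the 29 members, was not low for Srsf5. Sfrs18, now named Pnisr, encodes a serine- and arginine-rich nuclear protein. It read 12.7, 11.4 and 14.1 FPKM on BME and 10.7, 10.9 and 10.3 FPKM on BME + COL1 (0.25 ± 0.10, adjusted p = 0.0399), and passed the test in 13 of 21 settings. Hnrnph2, the X-linked relative of Hnrnph1, read 45.0, 39.3 and 47.3 FPKM on BME against 42.5, 41.9 and 40.5 on BME + COL1, and these ranges overlapped (0.07 ± 0.09, adjusted p = 0.469), with a call in 4 of 21 settings, each time as higher. Its autosomal relative Hnrnph1 was lower by −0.90 ± 0.11 (adjusted p = 7.24e-05).

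Between the day 5 groups, genes of cycling cells moved with the members. All 8 tested (among them Mki67, Top2a, Ccnb1 and Mcm5) were lower on BME than on BME + COL1 at day 5, with a median log2 difference of −2.26. The share over all genes was 45.3% lower. Mki67 was at 18.5, 4.88 and 14.6 FPKM on BME and 47.3, 48.3 and 42.3 FPKM on BME + COL1. The summed level of 9 fibroblast-associated genes was 50.7 to 62.3 FPKM on BME and 4.68 to 4.89 FPKM on BME + COL1, mostly Postn, Pdgfra and Pdgfrb, which reached 26.2, 22.6 and 9.06 FPKM. The summed level of the 10 mammary epithelial markers was 785 to 1170 FPKM on BME and 2364 to 2471 FPKM on BME + COL1. Nearly all of it was Krt8 and Krt18, which moved with the members. Krt8 was at 395 to 582 FPKM on BME and 1291 to 1324 on BME + COL1, and Krt18 at 362 to 550 and 1013 to 1088 FPKM. Cdh1 (15.9 to 17.3 and 30.1 to 32.0 FPKM) and Krt7 (1.23 to 4.45 and 10.4 to 10.9 FPKM) also did. Krt14 (9.26 to 22.8 and 16.0 to 18.7 FPKM) and Epcam (0.531 to 0.844 and 0.802 to 0.845 FPKM) overlapped between the groups. Cldn4 went the other way, at 0.0657 to 0.0943 and 0.0116 to 0.0235 FPKM. The summed blood-cell markers were at 6.82 to 10.6 and 6.41 to 7.76 FPKM, all but a small part of it Cd14, Cd68 and Hba-a1, of which Cd68 was at 2.59 to 3.21 FPKM on BME and 0.942 to 1.14 on BME + COL1, and the endothelial ones at 10.6 to 12.9 and 17.1 to 18.8 FPKM, nearly all of it Flt1. The part of these in the members' differences was not tested.

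Between day 1 and day 5 on BME the members differed less. On BME at day 5, 6 of 29 were lower than at day 1 (background 22.2% of all genes) and 0 were higher by limma (background 9.09%; 1 member, Srsf5, was higher at an unadjusted p under 0.05). The median of the members was −0.32 and that of all genes −0.15. Without BME day 5 replicate b the members' median was −0.10 and that of all genes −0.07. In that fit 11 members were called lower and 1 higher, against 2626 and 1267 of all 10497 genes. Without BME day 5 replicate a, 13 members were called lower, against 3248 of all genes. With only the 6 libraries of these groups in the fit, 0 members were called, against 618 genes lower and 452 higher over all. At an unadjusted p under 0.05 in that fit, 7 members were lower and 1 higher.

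Hnrnpm, which binds GU-rich intronic sites and drives mesenchymal splicing in breast cells, read 98.4, 97.4 and 104 FPKM at day 1 and 73.8, 49.7 and 75.9 FPKM at day 5. All 3 later values were below all 3 earlier ones (−0.61 ± 0.15, adjusted p = 0.0153), a separation seen downwards in 37.1% of all genes tested. Hnrnph1, a binder of G-runs, read 112, 114 and 123 FPKM at day 1 and 91.5, 68.8 and 90.7 FPKM at day 5 (−0.49 ± 0.11, adjusted p = 0.0143). Hnrnpk fell from 241 ± 4.82 to 178 ± 32.6 FPKM (SD, n = 3; −0.46 ± 0.13, adjusted p = 0.0262). The other three members called lower were Hnrnpc (−0.45 ± 0.14, adjusted p = 0.0393), Srsf2 (−0.41 ± 0.13, adjusted p = 0.0435) and Hnrnph3 (−0.32 ± 0.09, adjusted p = 0.0261). Of the most abundant members, Hnrnpa2b1 just missed the threshold (−0.52 ± 0.18, adjusted p = 0.0508) and Hnrnpab did not pass it (−0.32 ± 0.16, adjusted p = 0.151). Hnrnpa0, Hnrnpa3, Hnrnpul2, Srsf6 and Srsf10 had log2 differences between −0.20 and −0.13 that did not pass the test and turned positive, by at most 0.04, without replicate b.

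On BME + COL1 at day 5, 25 of 29 members were higher than on BME at day 1, where 34.2% of all genes were higher, and 0 were lower by limma (31.8% of all genes; 1 member, Hnrnph2, at an unadjusted p under 0.05). The members' median was 0.63 and that of all genes 0.03. In TPM the median of all genes was −0.19, with 2638 genes higher and 4870 lower, and 24 members were higher and 3 lower. This comparison shares its libraries with the other two, so the 3 sets of differences are not independent.

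Hnrnpab was highest in this comparison, from 144, 148 and 142 FPKM on BME at day 1 to the 299.9 to 325 FPKM given above for BME + COL1 (1.09 ± 0.16, adjusted p = 0.000324). Hnrnpd read 14.1, 15.7 and 15.7 FPKM at day 1, all below the BME + COL1 values (1.08 ± 0.19, adjusted p = 0.000839). Hnrnpu read 108, 109 and 116 FPKM at day 1 and 227, 216 and 214 FPKM on BME + COL1 (0.98 ± 0.14, adjusted p = 0.000218). Srsf7 (0.95), Hnrnpa3 (0.95) and Hnrnpa1 (0.94) were next, and none of these groups overlapped. Such a separation upwards was seen in 41.6% of all genes tested. Hnrnpa2b1 (0.63) and Hnrnpk (0.47) also rose. The 4 members that did not pass were Hnrnpul2 (0.25, adjusted p = 0.115), Srsf5 (−0.05), Sfrs18 (−0.09) and Hnrnph2 (−0.22, adjusted p = 0.0512).

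Several RefSeq transcripts, at a mean share of 5% to 95% of the gene's FPKM, were listed for 14 members. Their 33 transcript rows were tested on the log2 ratio of the transcript to the rest of its gene, among 3511 rows of all genes. Between BME and BME + COL1 at day 5, 11 rows in 8 genes differed (background 18.0%). The share of the transcript with a premature stop was higher on BME in Srsf3 and Srsf7, as was that of the intron-retaining transcript in Srsf1. Shares come from Cufflinks, which divides reads among overlapping transcripts, and these libraries give no counts over single junctions.

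The segments that set these transcripts apart were read from NCBIM37, with the in-frame stop codon in capitals and 30 bases after it. The Srsf3 exon is at chr17:29176399-29176854 (plus strand, 456 bases, coding gene exon present in the noncoding RefSeq transcript only), the Srsf7 exon at chr17:80603962-80604421 (minus strand, 460 bases, likewise), and the Srsf1 intron at chr11:87862718-87862913 (plus strand, 196 bases, an intron of the main coding transcript). They are shown because the stop inside each one shortens the reading frame, from 164 to 124 codons in Srsf3, from 235 to 137 in Srsf7 and from 248 to 201 in Srsf1. For Srsf7 the frame compared was that of NM_001195485, which is not its most abundant coding transcript.
Srsf3 exon: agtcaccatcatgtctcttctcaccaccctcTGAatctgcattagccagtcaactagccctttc
Srsf7 exon: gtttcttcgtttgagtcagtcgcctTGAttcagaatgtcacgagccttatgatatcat
Srsf1 intron: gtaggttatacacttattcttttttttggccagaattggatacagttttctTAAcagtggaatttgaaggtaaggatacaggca
In Srsf3 the stop begins at base 32 of the exon and lies 548 bases before the last exon junction, and in Srsf7 it begins at base 26 and lies 699 bases before it. A stop well upstream of the last junction is what nonsense-mediated decay is known to recognise. In Srsf1 the stop begins at base 52 of the intron and lies 227 bases past the last junction, and RefSeq lists that transcript as coding.

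The Srsf3 transcript with the stop-containing exon took 17.1%, 21.0% and 16.5% of the gene on BME at day 5 and 6.11%, 6.68% and 7.01% on BME + COL1. At day 1 it took 16.3%, 16.6% and 15.02%. Both BME groups lay above the BME + COL1 libraries (day 5: log2 ratio higher by 1.64 ± 0.16, adjusted p = 0.000888; BME + COL1 against day 1: −1.42 ± 0.16, adjusted p = 0.00291). Its own FPKM was 14.5, 10.6 and 14.1 on BME at day 5, 9.56, 9.99 and 10.5 on BME + COL1, and 13.3 to 14.2 at day 1. The coding transcript was at 69.9, 40.1 and 71.1 FPKM on BME at day 5, at 147, 139.6 and 139 FPKM on BME + COL1, and at 69.9 to 75.5 FPKM at day 1.

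Srsf7 had the same form. The transcript with the stop-containing exon took 27.2%, 39.6% and 31.0% on BME at day 5, 14.3%, 15.5% and 13.2% on BME + COL1, and 26.3%, 31.7% and 22.2% at day 1. The difference at day 5 was 1.52 ± 0.25 in log2 ratio (adjusted p = 0.00724), and that of BME + COL1 against day 1 was −1.11 ± 0.25 (adjusted p = 0.0394). The latter was called in only 10 of 17 settings and was lost without any 1 of the BME day 1 or BME + COL1 libraries or BME day 5 replicate c (adjusted p 0.0536 to 0.12). In FPKM that transcript was at 10.3 to 11.7 on BME at day 5, 10.7 to 12.4 on BME + COL1 and 10.04 to 13.0 at day 1, and these ranges overlap. The other four transcripts summed to 16.2 to 27.5 FPKM on BME at day 5, 67.9 to 71.3 FPKM on BME + COL1 and 28.1 to 35.2 FPKM at day 1. One of those coding transcripts, NM_001195485, fell as a share on BME by 15.5 points (adjusted p = 0.0266), called in 12 of 17 settings and lost without BME day 5 replicate c or any 1 BME + COL1 library (adjusted p 0.0548 to 0.0732). That call was also lost with only the 6 libraries compared (adjusted p = 0.0682).

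The Srsf1 transcript that keeps the intron took 16.8%, 24.9% and 21.6% on BME at day 5, 6.63%, 5.88% and 5.76% on BME + COL1, and 11.05%, 13.6% and 13.2% at day 1. The 3 groups did not overlap one another. The log2 ratio was higher by 2.02 ± 0.20 at day 5 (adjusted p = 0.0011), and lower by −1.15 ± 0.20 on BME + COL1 than at day 1 (adjusted p = 0.0181), which was called in 13 of 17 settings and lost without replicate b or c of either group (adjusted p 0.059 to 0.0693). Day 5 against day 1 on BME did not pass the test (0.87 ± 0.20, adjusted p = 0.12). Its FPKM was 6.39, 6.27 and 7.89 on BME at day 5, 5.27, 4.65 and 4.41 on BME + COL1 and 4.41 to 5.90 at day 1, while the other transcript was at 18.9 to 31.6, 72.1 to 74.5 and 33.2 to 38.9 FPKM. In all 3 genes the transcripts without the segment differed between the day 5 groups by more FPKM than the transcript with it. Srsf9 also has a noncoding RefSeq transcript, which stayed between 0.959% and 2.26% of the gene and was not tested.

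**Figure D3:**
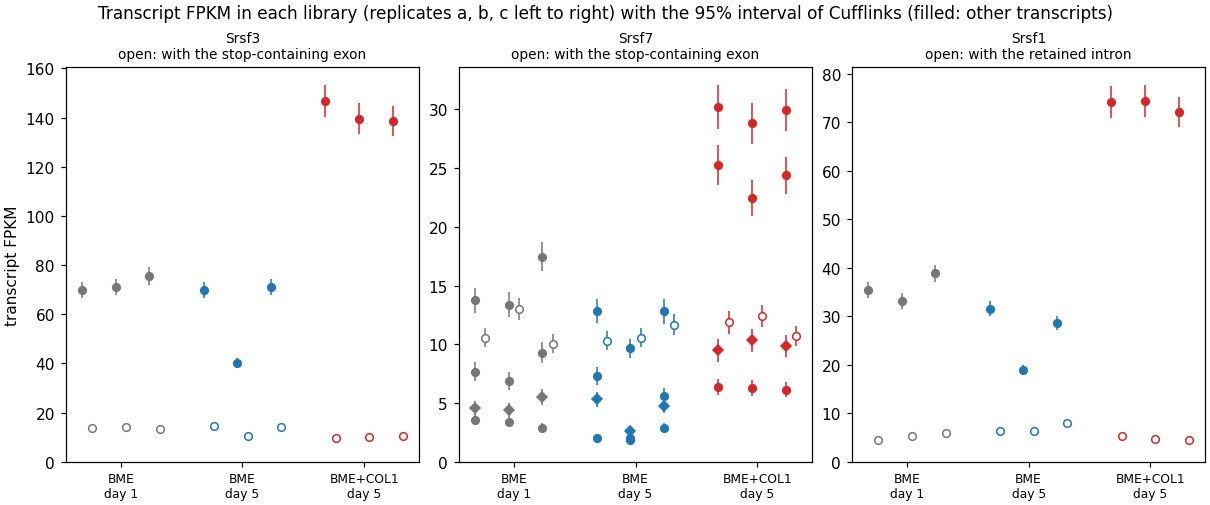
FPKM of single transcripts of Srsf3, Srsf7 and Srsf1 in each library, with the 95% interval that Cufflinks gave (open points, the transcript with the stop-containing exon or the retained intron; filled points and diamonds, the other transcripts). Open points stay between 4.41 and 14.5 FPKM in all 9 libraries, while the main coding transcripts are highest on BME + COL1.

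Over the whole table, 26 noncoding transcripts of coding genes had a higher share on BME at day 5 and 14 a lower one, of 180 tested, and of 163 transcripts that span an intron of another transcript 20 were higher and 8 lower. All rows together gave 309 higher and 322 lower. These counts include the Srsf3, Srsf7 and Srsf1 transcripts described above. They are given beside the members' and were not tested against each other.

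The other shares that differed changed protein or start rather than adding a stop. Srsf11 (p54), an SR protein with a regulatory role at weak splice sites, has 3 transcripts that begin at different exons. The one that begins farthest into the gene, NM_026989, took 34.2%, 35.3% and 39.2% on BME at day 5 and 19.5%, 19.0% and 15.4% on BME + COL1 (log2 ratio 1.37 ± 0.21, adjusted p = 0.00525). A second, NM_001093753, took 8.87%, 14.5% and 8.53% against 19.2%, 18.8% and 22.7% (−1.11 ± 0.25, adjusted p = 0.021), called in 11 of 17 settings and lost without BME day 5 replicate a or c or any 1 BME + COL1 library (adjusted p 0.0501 to 0.0688). The call of this second transcript was also lost with only the 6 libraries compared (adjusted p = 0.0542). Both transcripts also differed between BME + COL1 and day 1 (adjusted p = 0.0449 and 0.0456), but each of these was called in only 6 of 17 settings.

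Hnrnpa3, one of whose transcripts (NM_053263) uses a shorter first exon, had that transcript at 56.2%, 51.0% and 59.9% on BME at day 5 and at 46.1%, 42.9% and 41.2% on BME + COL1 (0.72 ± 0.17, adjusted p = 0.0276). This call was made in 11 of 17 settings and lost without BME day 5 replicate a or c or BME + COL1 replicate b or c (adjusted p 0.0663 to 0.0875). It was also lost with only the 6 libraries compared (adjusted p = 0.0663) and with the replicate letter as a block (adjusted p = 0.065). How reads were divided with the overlapping model Gm6793, at 158 to 518 FPKM, is uncertain for this share too. Within BME day 5 another transcript, NM_146130, took 34.0%, 37.3% and 18.7%. Hnrnpd and Hnrnpf were also called and are named after their values were seen, with no tally over settings. Hnrnpd makes several proteins through a pair of optional exons. The p42 form, with the exon of 147 bases alone, took 20.1% to 23.8% on BME at day 5 and 14.1% to 15.7% on BME + COL1 (adjusted p = 0.0112). The p40 form, with the other exon alone, took 16.0% to 18.5% and 24.7% to 26.4% (adjusted p = 0.0139). One of the transcripts of Hnrnpf, NM_001166427, rose by 3.84 points (adjusted p = 0.0037). Between day 5 and day 1 on BME, 0 of the 33 rows passed the test (background 0.427%; 3 at an unadjusted p under 0.05), and between BME + COL1 at day 5 and BME at day 1, 5 rows in 4 genes did (background 7.26%). Transcripts of Hnrnpa2b1, Hnrnpab, Hnrnpc, Hnrnpm, Srsf5 and Srsf10 passed in none of the 3 comparisons.

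**Figure D4:**
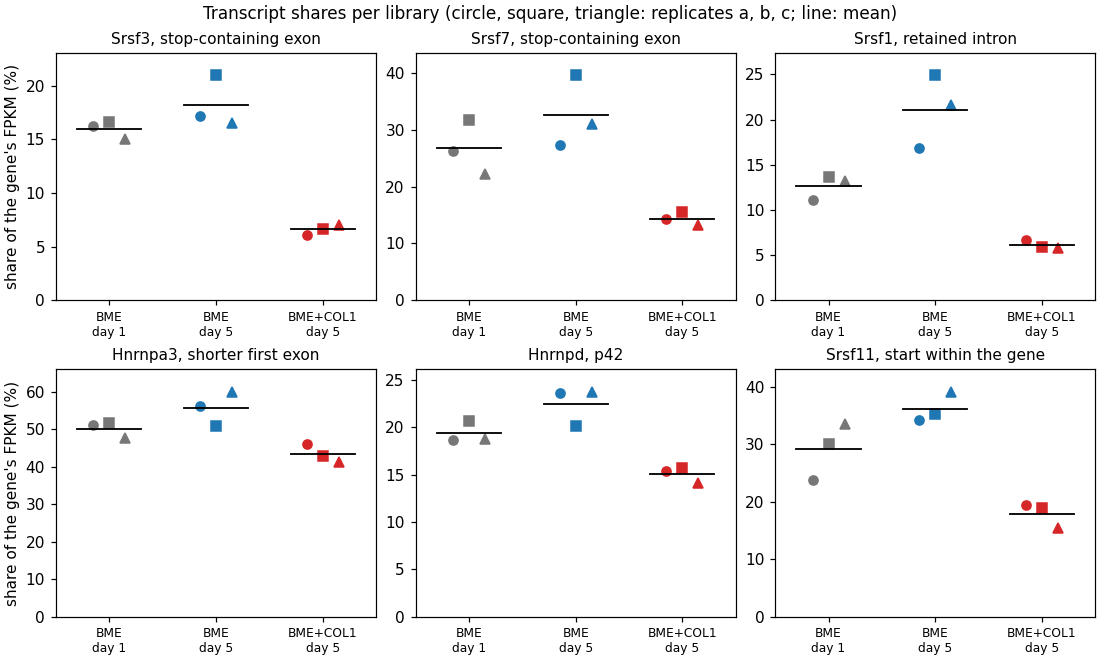
Share of the gene's FPKM taken by 1 transcript of 6 members in each library, with the group mean as a line. All 6 shares are lower in the 3 BME + COL1 libraries than in the 3 BME day 5 libraries. Only transcripts with a higher share on BME are shown. Another transcript of each of Srsf7, Srsf11 and Hnrnpd was called lower on BME.

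Genes that work with these factors were taken as lists. Between the day 5 groups, 45.3% of all genes tested were lower on BME and 30.3% higher. Of 11 SR-related proteins outside the rule, 8 were lower on BME than on BME + COL1 at day 5, with a median of −0.72, among them Rnps1 (−1.18) and the enhancer binder Tra2b (−1.18). Of 19 hnRNP-like proteins, 15 were lower and 1 higher (median −0.86). Ptbp1, which silences exons flanked by pyrimidine tracts, was at 81.1 FPKM on BME and 190 on BME + COL1 (−1.25), while its neuronal relative Ptbp2 was the one that rose (0.41). Dazap1, a binder of intronic splicing enhancers, fell by 1.19 on the log2 scale.

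The SR protein kinases did not move as one. Of 8 tested, 2 were higher and 4 lower (median −0.12), shares near the background. Srpk1, which phosphorylates SR proteins in the cytoplasm for nuclear entry, was lower on BME by −1.14, and its relative Srpk2 was higher by 1.18. Of the nuclear kinases, Clk2 was higher (0.30) and Prpf4b lower (−0.49). The 3 transportins that carry SR and hnRNP proteins into the nucleus were all lower, with Tnpo1, which carries Hnrnpa1, at −1.14 and Tnpo3, which carries SR proteins, at −0.84.

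The core spliceosome was lower in nearly all its measured genes. All 10 of the U1 snRNP and Sm ring genes were lower (median −1.30), with Snrpf at −1.65 and Snrpd1 at −1.61. Of 16 U2 genes 15 were lower (median −0.98), Snrpa1 at −2.13 and U2af1 at −1.64, and Sf3b1 did not pass (−0.08). Of 22 tri-snRNP genes 21 were lower (median −1.10), with Lsm3 at −2.39 and Ppih at −1.68. The PRP19 complex had 8 of 12 lower and 1 higher (median −0.52): Isy1 fell most (−1.70) and Crnkl1 rose (0.26). Of 15 genes of the exon junction complex and nonsense-mediated decay, the pathway that clears transcripts with premature stops, 13 were lower and 1 higher (median −0.74), with Magohb at −1.61, Eif4a3 at −1.32 and Smg6 at 0.18. Tissue-restricted regulators were tested in 9 of 17 cases, and 6 were lower and 1 higher, with Mbnl3 at −2.01, Celf2 at −1.39 and Mbnl1 at 0.49.

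Against day 1, the lists on BME at day 5 had fewer calls: 1 of 11 SR-related genes, 8 of 19 hnRNP-like genes, 4 of 10 U1 and Sm genes, 9 of 16 U2 genes and 7 of 22 tri-snRNP genes were lower. Of all genes tested, 22.2% were lower in this comparison. Rbmx, the X-linked hnRNP G, was higher (0.47). Of the 8 cycling genes, 0 were called in this comparison, with a median of −0.62. On BME + COL1 at day 5 all 10 U1 and Sm genes, 14 of 16 U2 genes, 21 of 22 tri-snRNP genes and 15 of 19 hnRNP-like genes were higher than at day 1. The share over all genes tested was 34.2% higher. All 8 cycling genes were higher there, with a median of 1.63.

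**Figure D5:**
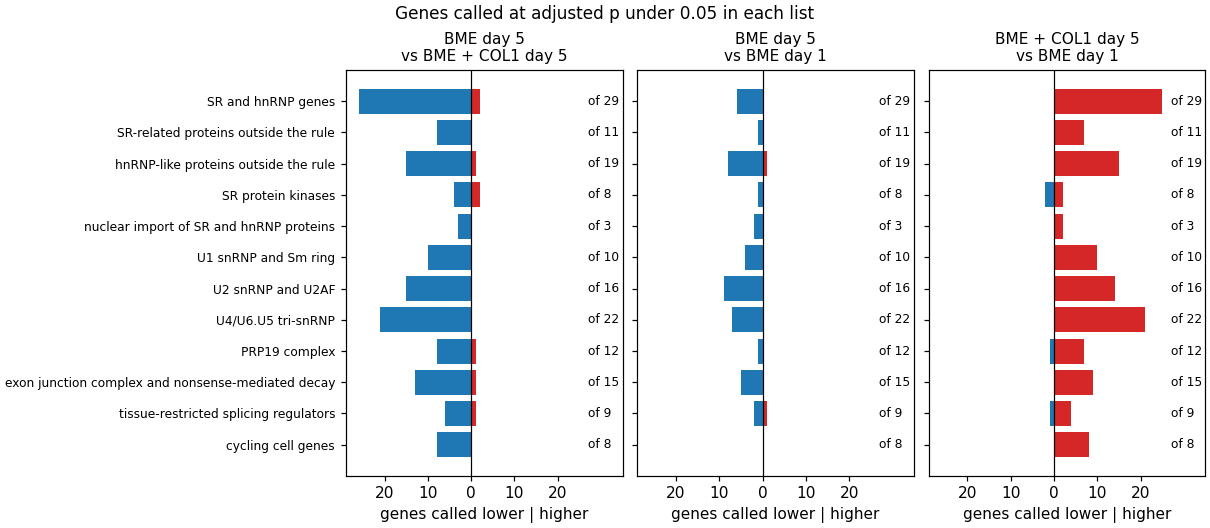
Number of genes called lower (bars to the left) and higher (bars to the right) at adjusted p under 0.05 in the SR and hnRNP genes and 11 related lists, with the number tested beside each bar. At day 5 the bars of the splicing lists point almost wholly to lower on BME, while the SR protein kinases have 2 of 8 higher and 4 lower. Of all genes tested, 45.3% were lower and 30.3% higher between the day 5 groups.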

How the data were processed

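RNA was sequenced from 9 cultures of D2.0R cells on an Illumina HiSeq after a directional library kit. Tools listed in the submitters' processing notes were TopHat2 2.0.8, Trimmomatic 0.30, CASAVA 1.8.4 and Partek, and builds were mm9 and NCBIM37. The authors deposited FPKM of each RefSeq transcript with a 95% interval, in Cufflinks output. Whether counting used strand is not given in the sources used here.

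FPKM was summed per symbol (other deposited values were not used beside coverage and interval). Genes whose mean reached 1 FPKM were fitted with limma 3.58.1 (R 4.3.3): 3 group means over all 9 libraries, log2(FPKM + 0.1), intensity trend, Benjamini-Hochberg adjustment over 10497 genes, threshold 0.05. Shares were fitted without the trend, for transcripts at 5% to 95% of the gene; of 2 mirror transcripts, the one with the smaller share was kept. The study's own test on aligned reads could not be repeated from these values. Members were picked for naming by the 6 largest called differences in each comparison, the 3 highest levels, a call against the majority and the largest called share differences. From each list, up to 2 rises and 2 falls were named. Between the day 5 groups, members picked by gene level were given for every library. In the other comparisons some were given as a mean and SD or as a log2 difference alone. The share of 1 member is not reported here. Members and lists were chosen with earlier results of these data known. Segments were read from the NCBIM37 genome, in which 449 of 453 member introns had GT or GC and AG at their ends. Both fits were tested on simulated data with independent noise and few changed features. That test does not cover a shift of a whole library or calls as many as here. Figures were drawn with matplotlib 3.10.9. Names and strands of pseudogene models were taken as the files give them.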

Additional observations from a re-analysis of the deposited data

How the results depend on the processing

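The 26 members called lower on BME than on BME + COL1 at day 5, and the 25 called higher on BME + COL1 than on BME at day 1, numbered 23 to 26 under every scaling, filter, pseudocount and library left out, and were 24 and 21 at an adjusted p under 0.01. The 2 called higher at day 5 were 1 with no filter on low values and at an adjusted p under 0.01, 4 with quantile normalization, and 1 to 3 with single libraries left out. Day 5 against day 1 on BME depended most on the settings. Its 6 lower calls became 1 with no filter, 2 without short genes, 0 with only the 6 libraries compared, 0 at an adjusted p under 0.01 and 2 to 13 with single libraries left out: 3 without BME day 1 replicate a, 2 without b or c, 13 without BME day 5 replicate a and 11 without b. Its 0 higher calls became 1 with a pseudocount of 1 or 0.01 FPKM, no filter, no short genes or no intensity trend, 2 in TPM, 3 with median-ratio scaling or quantile normalization, and 0 to 1 with libraries left out. The 0 lower calls of BME + COL1 against day 1 became 1 with a pseudocount of 1 or 0.01 FPKM, a mean of at least 5 FPKM, median-ratio scaling or only the 6 libraries compared, 3 in TPM, 2 with quantile normalization, and 0 to 1 with libraries left out. Lower calls over all genes in day 5 against day 1 on BME moved as well, from 2327 to 618 with only the 6 libraries compared. They were 3248 without BME day 5 replicate a and 2626 without b. The cause of these changes was not tested.

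The 11 changed shares at day 5 were 17 with a trend on gene level, 5 at an adjusted p under 0.01 and 7 to 11 with libraries left out, 7 without BME + COL1 replicate b or c. The 5 changed shares of BME + COL1 against day 1 were 8 with a pseudocount of 1 FPKM or the trend, 3 with 0.01 FPKM, 1 at an adjusted p under 0.01 and 1 to 5 with libraries left out, 1 without BME day 1 replicate b or c or BME + COL1 replicate b or c. The day 5 calls of the Srsf1, Srsf3 and Srsf7 transcripts with a retained intron or stop-containing exon passed in all 17 settings, with adjusted p up to 0.00841, 0.0078 and 0.0294. A log2 share in place of the ratio, and the pseudogene sums, were chosen after seeing the data. Sign changes were found for 1 called value and 7 uncalled ones. The called Srsf11 difference at day 5 (−0.23) was 0.11 in TPM (adjusted p = 0.165) and 0.18 with quantile normalization (adjusted p = 0.0193). In day 5 against day 1 on BME, Hnrnph2 was 0.0033 and 0.011 and Srsf6 0.020 and 0.032 with median-ratio scaling and quantile normalization, and Srsf11 (0.03) was −0.14 by its most abundant transcript. With libraries left out, that comparison gave −0.26 to 0.016 for Hnrnpa0, −0.29 to 0.0065 for Hnrnpa3, −0.27 to 0.0012 for Hnrnpul2, −0.32 to 0.037 for Srsf10, −0.24 to 0.041 for Srsf6 and −0.027 to 0.090 for Srsf11; the cause was not tested. Replicate letters did not pair the libraries: deviations of same-lettered libraries correlated at r = −0.23 to 0.096, and a library correlated best with its own letter in 3 of 18 cases. With the letter as a replicate block, 26 members were lower and 2 higher at day 5, 6 lower against day 1 and 25 higher on BME + COL1, and 10, 0 and 3 shares were called.

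FPKM holds no read counts, so depth could not set an interval on gene values beyond that of Cufflinks, and low transcripts are limited by how reads were divided.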
